A study of Rattus norvegicus with 9 samples.

Results

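Untreated rat whole blood was described here from the 3 Control libraries of a series of 9, which were picked by their label alone. The RNA was measured by RNA-seq, and the table gave for each of 12854 genes an estimated count and an FPKM value (fragments scaled to transcript length in kilobases and to the library total), so FPKM allowed levels of different genes to be set side by side per length. The study examined DNAgel, a hydrogel of crosslinked salmon sperm DNA, as a dressing against bleeding. Its other libraries came from blood kept for 15 min with DNAgel (3) or with GS, a gelatin sponge (3), and were not used here. The Control was labelled as blood with the treatment Control, and no genotype, agent or incubation time was given for it. The study's methods describe fresh whole blood of rats. The sources used here do not state whether separate rats gave the 3 Control libraries, so the spread between them may be technical.

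Blood carries red cells, platelets and several kinds of white cell, and its RNA is the sum over all of them. Mature mammalian red cells have no nucleus, but the youngest ones, the reticulocytes, still hold messenger RNA, ribosomes and some mitochondria left from their precursors, and most of that RNA encodes globin. Platelets are fragments of megakaryocytes that likewise lack a nucleus and carry transcripts for granule proteins and adhesion receptors. White cells keep a nucleus and transcribe, and in these summed values fewer cells of a type cannot be told apart from less RNA per cell.

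The Control libraries held 66647051, 66107661 and 64383719 counts (replicates 1, 2 and 3). Values above 0 were listed for 6905, 6963 and 8417 genes, and 2335 of the 12854 genes were listed at 0 in all 3. The most frequent count above 0 was 4 in each library, so a gene with no count may still have had up to 3 such units, or 12 counts over the 3 libraries. This floor covers counting error only. Over the 970 genes outside hemoglobin with a mean FPKM of at least 1, replicate 3 stood apart: 152 genes were over 1.5-fold higher in it than in replicate 1 and 29 were over 1.5-fold lower, while replicate 2 against replicate 1 gave 45 and 37. Replicate 3 held the highest of the 3 values for 548 of these 970 genes (56.5%), a background against which the gene groups below are read.

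Hemoglobin genes held nearly the whole of the transcriptome. The 9 genes named as hemoglobin took 90.3%, 90.9% and 88.4% of the summed FPKM, which is 89.9% ± 1.303 (SD, n = 3), and 95.8%, 95.8% and 95.0% of the counts. The share was lowest in replicate 3 on both scales. Without replicate 3 the FPKM share was 90.6%.

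Hbb-b1, which encodes the major adult beta chain, was the most abundant gene, with FPKM values of 164056, 167090 and 173461. Hba-a2, an adult alpha chain, followed with 103111, 99833 and 89742. The other adult chains were Hbb-bs, a further beta chain, with 22591, 20740 and 21125, and Hba-a3, a further alpha chain, with 10845, 10747 and 9502. Replicate 3 differed from the others in its chains: Hbb-b1 had its highest value there and both alpha genes their lowest. The summed FPKM of Hbb-b1 and Hbb-bs over that of Hba-a2 and Hba-a3 was therefore 1.64, 1.70 and 1.96. This ratio depends on the length assigned to each gene. The counts and FPKM values together gave a length of 3563 bases for Hbb-b1 and 2860 for Hba-a2, but 471 for Hbb-bs and 548 for Hba-a3, although the chains are of nearly the same size as proteins.

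The remaining hemoglobin genes are the epsilon, gamma, zeta and theta chains, of which epsilon and zeta are known as embryonic. Hbe1 was listed in all libraries, at FPKM values of 1706, 2205 and 1577. Hbe2 had values of 1620 and 2147 in replicates 1 and 2 and was listed at 0 in replicate 3. Hbg1 had 1621 and 1538 in replicates 1 and 3 and was listed at 0 in replicate 2. Each listing at 0 stood beside many counts in the other libraries (67113 for Hbe2 in replicate 2, 71155 for Hbg1 in replicate 1). Summed over the 3 genes, the FPKM was 4946, 4352 and 3114, a range of 1.59-fold. Reads that match more than 1 globin gene can be assigned to one or another, so the levels of the single embryonic and gamma genes are uncertain. Hbz (0.0948, 0 and 0.128) and Hbq1b (0, 0 and 0.603) were close to the floor.

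Promoter sequences of genes at the head of the red cell and platelet transcripts are shown because the globin, heme and platelet genes are known from other work to carry sites for the GATA and CACCC-binding families of factors in their control regions. They are RefSeq sequences on the build GRCr8, from 250 bases before to 50 after the start site, 5′ to 3′, with 3 motifs in capitals: AGATAA, which is read by GATA factors, CACCC, and TATAAA, the TATA box. Each was searched on both strands, so its reverse complement is in capitals too, and no matches of different motifs overlap in these windows. No such sequence was used for Pf4 or S100a8.
Hbb-b1 (chr1:167643471-167643770, minus strand): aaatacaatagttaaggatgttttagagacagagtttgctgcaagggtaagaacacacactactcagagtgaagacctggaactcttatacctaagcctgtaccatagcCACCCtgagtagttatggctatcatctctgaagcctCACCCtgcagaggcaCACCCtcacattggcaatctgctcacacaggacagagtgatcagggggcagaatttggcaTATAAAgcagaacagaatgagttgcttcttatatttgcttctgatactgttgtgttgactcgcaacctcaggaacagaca
Hba-a2 (chr10:15829089-15829388, minus strand): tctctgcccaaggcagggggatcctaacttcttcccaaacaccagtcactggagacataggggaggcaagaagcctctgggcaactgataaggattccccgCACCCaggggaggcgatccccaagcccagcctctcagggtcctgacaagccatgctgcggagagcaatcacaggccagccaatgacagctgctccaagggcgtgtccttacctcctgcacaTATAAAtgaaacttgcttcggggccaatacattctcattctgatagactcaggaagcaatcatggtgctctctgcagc
Alas2 (chrX:22895200-22895499, plus strand): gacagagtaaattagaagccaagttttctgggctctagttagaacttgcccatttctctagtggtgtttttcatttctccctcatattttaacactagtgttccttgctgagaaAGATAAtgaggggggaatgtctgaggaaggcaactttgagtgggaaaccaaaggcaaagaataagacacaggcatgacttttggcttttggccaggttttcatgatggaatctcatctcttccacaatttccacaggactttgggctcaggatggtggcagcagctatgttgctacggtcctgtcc
Lgals5 (chr10:64355088-64355387, minus strand): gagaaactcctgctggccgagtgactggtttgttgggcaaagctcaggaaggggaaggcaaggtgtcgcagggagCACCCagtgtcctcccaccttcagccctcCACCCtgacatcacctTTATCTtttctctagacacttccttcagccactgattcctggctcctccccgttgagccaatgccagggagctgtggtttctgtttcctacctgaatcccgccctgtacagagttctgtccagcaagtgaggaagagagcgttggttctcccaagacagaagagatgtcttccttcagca
Clec1b (chr4:164533859-164534158, plus strand): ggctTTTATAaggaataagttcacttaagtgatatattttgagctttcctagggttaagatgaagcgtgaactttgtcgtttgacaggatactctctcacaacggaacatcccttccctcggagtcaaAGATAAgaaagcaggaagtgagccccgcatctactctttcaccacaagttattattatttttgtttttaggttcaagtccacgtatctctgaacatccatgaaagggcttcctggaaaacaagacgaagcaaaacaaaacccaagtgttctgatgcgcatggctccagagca

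Both globin windows held TATAAA close to the start site, beginning at position -30 for Hbb-b1 and -28 for Hba-a2. CACCC stood at -141, -105 and -90 for Hbb-b1 and at -149 for Hba-a2. The form AGATAA stood in neither globin window. Alas2 held it at -136, Lgals5 in the reverse orientation at -130 and Clec1b at -122. Both globin windows hold the shorter letters gata, and other forms of the GATA site were not searched. Of all 33469 promoters in the table, 11.6% held AGATAA, 54.9% held CACCC and 14.2% held TATAAA. The gene sets that follow were limited to genes with exactly 1 promoter entry, a limit that was not set on the 33469. Among such red cell genes, 8 of 27 held AGATAA (29.6%), against 7 of 26 platelet genes (26.9%) and 1 of 59 ribosomal protein genes (1.69%). It stood in 16.4% of the promoters of the 100 leading genes and 7.55% of those of genes with a mean FPKM of at least 1. CACCC stood in 77.8%, 46.2% and 44.1% of the red cell, platelet and ribosomal protein promoters. For the 100 leading genes its share was 58.2%, and for genes with a mean FPKM of at least 1 it was 59.0%. A match is a description of letters, not of a bound site.

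**Figure D1:**
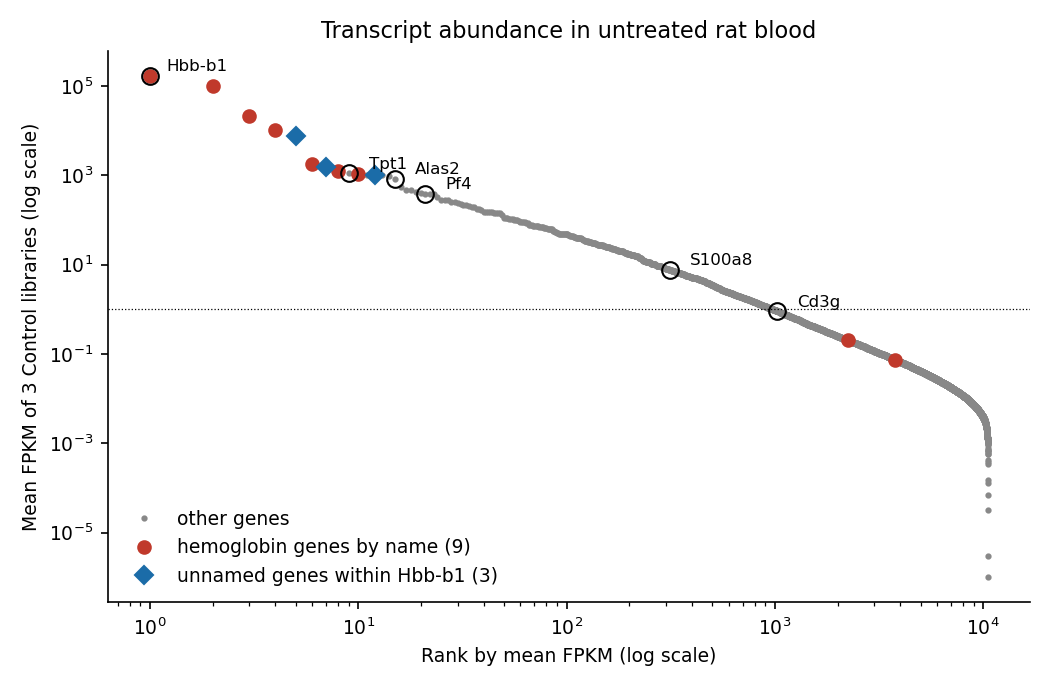
Mean FPKM of the 3 Control libraries (log axis) against rank (log axis), with 9 hemoglobin genes by name as red circles, 3 unnamed genes within the Hbb-b1 span as blue diamonds and other genes as gray points. Hemoglobin genes hold the first 4 places, and 977 genes lie at or above the dotted line at an FPKM of 1.

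Outside the hemoglobin names, the 3 genes with no symbol that lie within the span of Hbb-b1 were among the leaders. In the table's coordinates Hbb-b1 runs on the minus strand of chromosome 1 from 158120200 to 158251837, and the unnamed genes lie inside it on the plus strand. The first, ENSRNOG00000062356 (158218581 to 158219861), had FPKM values of 8108, 4192 and 10065. ENSRNOG00000069439 (158243917 to 158245197) had 1191, 1776 and 1606, and ENSRNOG00000069200 (158237191 to 158238471) had 989, 1033 and 993. The first gene was lowest in replicate 2, the second was lowest in replicate 1, and the third was nearly level. Together they made 31.5%, 23.0% and 32.5% of the FPKM outside hemoglobin, or 29.0% ± 5.23 (SD, n = 3). Hbb-bs also lies on the plus strand at the edge of the Hbb-b1 span. Whether the counting used the strand is not given in the sources used here, so reads of Hbb-b1 and of these genes may not have been kept apart. Where the 3 genes were counted with hemoglobin, its share was 92.8% of the summed FPKM, and shares of the rest were about 1.4 times larger.

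The rest was concentrated in few genes. A mean FPKM of at least 1 was reached by 977 genes, 970 of them outside hemoglobin. Of the FPKM outside hemoglobin, 50% lay in 13 genes, 75% in 65 and 90% in 237. The 30 leading genes held 63.7% and the 100 leading genes 80.9%. With the 3 unnamed genes counted as hemoglobin, 29 genes held 50%.

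**Figure D2:**
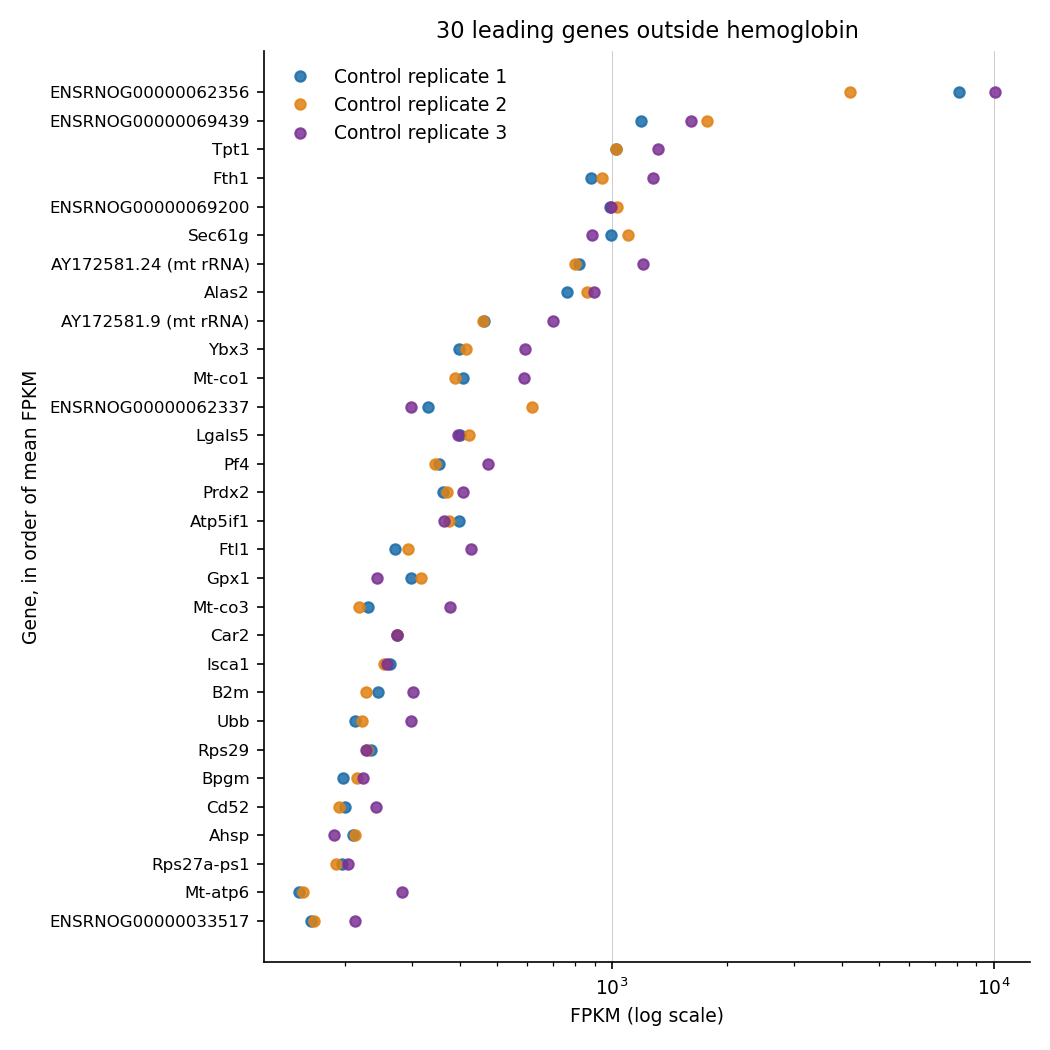
FPKM (log axis) of the 30 leading genes outside hemoglobin, in order of mean FPKM, with 1 point per Control library. Library values lie close together for Car2 (273 to 274) and Rps29 (226 to 234), while Mt-atp6 (152 to 282) and Fth1 (882 to 1283) were highest in replicate 3.

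Among annotated genes outside hemoglobin, Tpt1, the translationally controlled tumor protein, was the most abundant, with FPKM values of 1026, 1026 and 1322. Fth1, the heavy chain of ferritin, followed with 882, 943 and 1283. Sec61g, a small subunit of the channel for protein entry into the endoplasmic reticulum, had 995, 1103 and 885. Tpt1 and Fth1 were highest and Sec61g lowest in replicate 3. Ybx3, a protein that binds messenger RNA, had 397, 415 and 591. Lgals5, a rat galectin known from reticulocytes and red cells, had 400, 422 and 396 and so differed little between libraries. A second entry described as Tpt1 (ENSRNOG00000033517 on chromosome 1) had 163, 166 and 212, and its order over the libraries followed that of Tpt1 itself. Cd52, a short surface glycoprotein known from lymphocytes, had 200, 193 and 242 and was the 26th gene in order.

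Ribosomal RNA was found among the leaders in these libraries of poly(A) RNA. The mitochondrial ribosomal RNA entries AY172581.24 and AY172581.9 had mean FPKM values of 941 ± 227 and 540 ± 138 (SD, n = 3) and were the 7th and the 9th gene outside hemoglobin. An 18S entry (ENSRNOG00000062337) had 329, 617 and 298. It was highest in replicate 2, and the mitochondrial entries were highest in replicate 3. All entries for ribosomal RNA together held 5.81% ± 0.709 of the FPKM outside hemoglobin.

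Genes of the red cell line made the largest part of what could be assigned to a cell type. The erythroid list had 44 genes, of which 43 were analysed here, and 28 of these (65.1%) reached a mean FPKM of 1, against 970 of 12845 genes outside hemoglobin (7.55%). Their summed FPKM was 2406, 2599 and 2654, which was 7.57% ± 0.877 (SD, n = 3) of the FPKM outside hemoglobin, and 10.6% where the unnamed genes were counted as hemoglobin. The list had 5 members among the 30 leading genes and 10 among the 100 leading genes. Its 5 defining markers were detected in every library, with mean FPKM values from 6.88 for Klf1, a transcription factor of the red cell line, to 838 for Alas2.

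Alas2, the erythroid enzyme of the first step of heme synthesis, had FPKM values of 761, 858 and 896, lowest in replicate 1. Prdx2, a peroxidase abundant in red cells, had 360, 369 and 408. Car2, a carbonic anhydrase that interconverts carbon dioxide and bicarbonate, had 274, 273 and 273, and its SD on the log2 scale was 0.00325, among the 5 lowest of the named genes with a mean FPKM of at least 10. Bpgm, which makes the bisphosphoglycerate that lowers the oxygen affinity of hemoglobin, had 197, 215 and 222. Ahsp, the chaperone of free alpha chains, had 209, 212 and 187, and its lowest value fell in replicate 3, as did the lowest values of both adult alpha genes.

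The functions tied to the red cell showed the same leading genes. Heme synthesis held 3.65% ± 0.470 of the FPKM outside hemoglobin, with 10 of 17 genes at a mean FPKM of at least 1. After Alas2 came the mitochondrial carrier Slc25a39 with a mean of 153 ± 15.6, the iron-sulfur scaffold Iscu with 74.5 ± 8.77 and Fech, the last enzyme of the pathway, with 69.6 ± 5.82 (SD, n = 3). Iron storage and uptake held 4.20% ± 0.422, chiefly as Fth1 and Ftl1, the ferritin light chain, which had FPKM values of 271, 291 and 428. Ncoa4, the receptor that brings ferritin to breakdown, followed with 53.2 ± 4.22. Both ferritin chains were highest in replicate 3 and Ncoa4 was lowest there.

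Genes of the red cell membrane and skeleton included Rhd, the Rh antigen, with a mean FPKM of 64.7 ± 5.83 (SD, n = 3). Slc4a1, the band 3 anion exchanger, had 8.52, 10.1 and 12.8, and Kel, the Kell antigen, had 6.65, 7.24 and 8.37. Slc4a1 and Kel were highest in replicate 3, as were 9 of the 10 genes of this list with a mean FPKM of at least 1. Gas exchange was led by Car2, Bpgm and the water channel Aqp1, which had 14.3, 20.0 and 15.8. Antioxidant defense held 2.52% ± 0.371, led by Prdx2 and Gpx1, a glutathione peroxidase with 298, 315 and 242. Transcriptional regulators of the red cell line were low by comparison: Hemgn had a mean of 31.1 ± 2.88, Nfe2 8.82 ± 1.11 and Klf1 6.88 ± 1.46.

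Genes that clear organelles from maturing reticulocytes formed a further group. Bnip3l, the mitophagy receptor known to be needed for mitochondrial loss in mouse reticulocytes, had a mean FPKM of 113 ± 6.98, and Gabarapl2, an ubiquitin-like protein of the autophagosome, had 144 ± 10.8 (SD, n = 3). In this list 9 of 21 genes reached a mean of 1, and it held 1.11% ± 0.156. Ubiquitin precursors and conjugating enzymes held 1.11% ± 0.0627, of which Ubb, a polyubiquitin gene, made 64.5% with values of 213, 222 and 298. Proteasome subunits were much lower, at 0.177% ± 0.0215 over 46 genes, with Psma6, a subunit of the core, highest at FPKM values of 13.5, 14.6 and 13.9.

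Of the function lists, ribosomal proteins held the largest share by FPKM, but by counts they made 5.95%, just under heme synthesis at 6.01%. Ribosomal proteins held 7.29% ± 0.827 of the FPKM outside hemoglobin, with 89 of 102 entries at a mean of at least 1 and 17 among the 100 leading genes. Rps29 led them with values of 234, 228 and 226, followed by Rplp1 (140 ± 4.96) and Rplp0 (140 ± 4.78). Translation factors held 3.74% ± 0.154, but 88.3% of that was Tpt1, and without Tpt1 the list held 0.440%. Eef1a1, the main elongation factor, had a mean of 39.7 ± 5.39.

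Mitochondrial transcripts were present from both genomes. The 13 protein genes of the mitochondrial DNA held 4.06% ± 0.745, led by Mt-co1 and Mt-co3, subunits of cytochrome c oxidase. Mt-co1 had FPKM values of 408, 388 and 588, and Mt-co3 had 230, 217 and 377. Every one of the 13 genes was highest in replicate 3. The nuclear genes of oxidative phosphorylation held 3.16% ± 0.466 and did not share this order. Of 35 with a mean of at least 1, 9 were highest in replicate 3 and 16 were lowest there. Their leader was Atp5if1, an inhibitor of the ATP synthase, with 398, 374 and 362. Glycolytic genes were low, at 0.0333% ± 0.00609, and Gapdh led them with 3.25, 2.96 and 4.29.

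**Figure D3:**
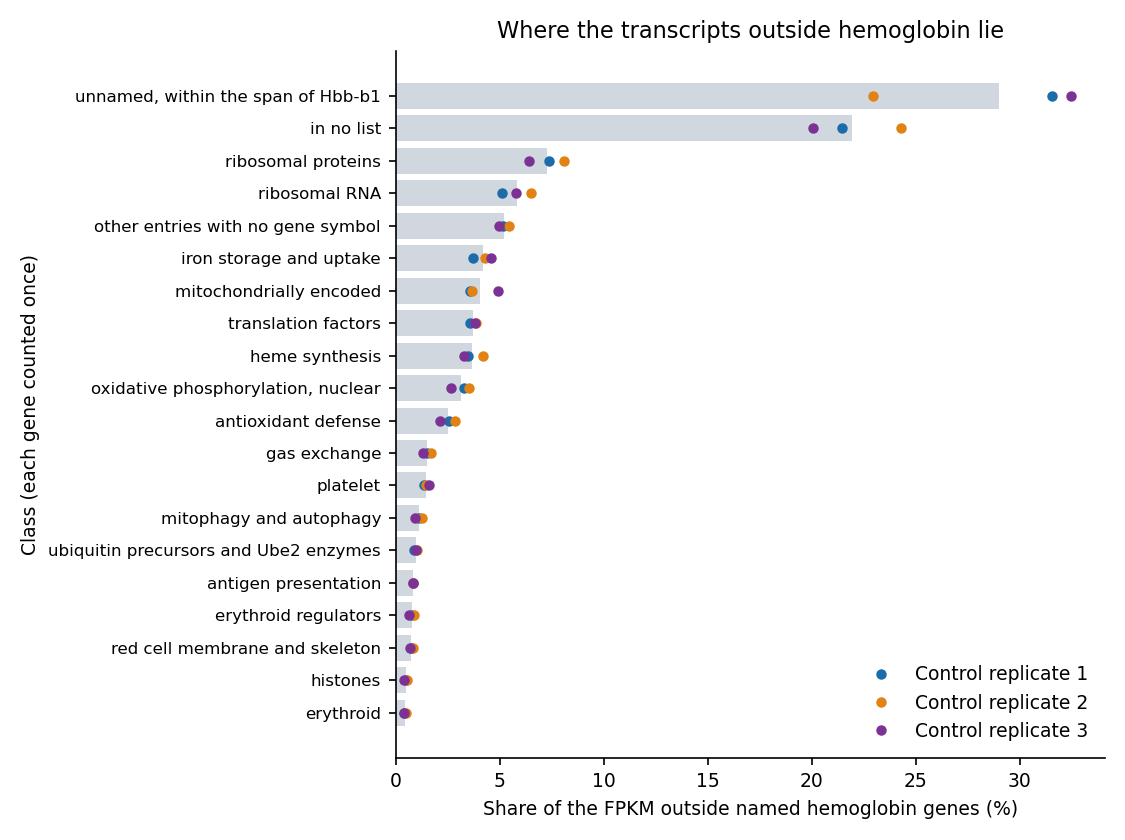
Share of the FPKM outside named hemoglobin genes (%) held by 20 classes, each gene counted in 1 class only, with the bar as the mean and 1 point per Control library. The unnamed genes within Hbb-b1 hold 29.0% and genes in no list 21.9%, with ribosomal proteins next at 7.29%.

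Platelets gave the next most abundant cell type transcripts. Of 39 genes on the platelet list 38 were analysed here, 16 (42.1%) reached a mean FPKM of 1 and none was listed at 0 throughout. Their summed FPKM was 460, 457 and 638, or 1.51% ± 0.114 (SD, n = 3) of the FPKM outside hemoglobin, and 2.14% where the unnamed genes were counted as hemoglobin. Pf4, the chemokine platelet factor 4 of the alpha granules, made 75.2% of that sum. Pf4 had FPKM values of 352, 344 and 474 and was the 14th gene outside hemoglobin.

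The other platelet genes were far below Pf4. Clec1b, the CLEC-2 receptor for podoplanin, had 37.3, 35.0 and 46.0. Nrgn, a calmodulin-binding protein known from neurons and platelets, had 16.0, 22.6 and 33.1, and Myl9, a myosin light chain, had 10.6, 9.96 and 22.6. These genes were all highest in replicate 3. Gng11, a G protein subunit, had 10.8, 9.46 and 11.4. The defining receptor genes were lower: Gp1bb, part of the platelet receptor for von Willebrand factor, had a mean of 5.15 ± 0.362, Gp9 of the same complex 1.53 ± 0.632 and Itga2b, the integrin chain of the fibrinogen receptor, 0.845 ± 0.348. Ppbp, a chemokine gene that lies beside Pf4 on chromosome 14 and is abundant in human platelets, had 1.60, 2.02 and 1.28. It was the only one of the 16 platelet genes with a mean of at least 1 that was not highest in replicate 3. The summed FPKM of the erythroid list exceeded that of the platelet list 5.23-, 5.69- and 4.16-fold. This ratio depends on Pf4 and on the scale. Without Pf4 the platelet list made 0.374% of the FPKM outside hemoglobin, against 7.57% for the full erythroid list. By counts the erythroid list made 12.7% and the platelet list 0.976%.

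**Figure D4:**
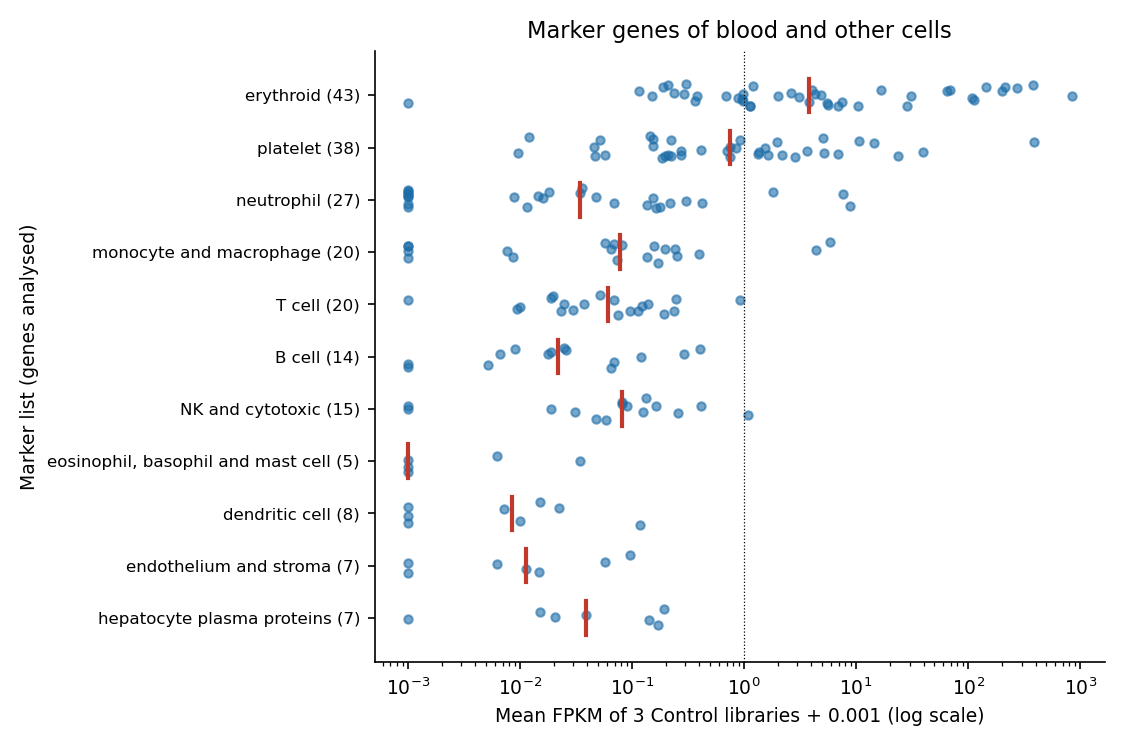
Mean FPKM of the 3 Control libraries plus 0.001 (log axis) for the genes of 11 cell type lists, 1 point per gene, with the median of each list as a red bar and an FPKM of 1 as a dotted line. Erythroid genes have the highest median (3.83), followed by platelet genes (0.751), and the medians of all other lists lie under 0.1.

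The white cell lists held a small share of the transcripts. Over 7 lists (neutrophil, monocyte and macrophage, T cell, B cell, NK and cytotoxic, eosinophil with basophil and mast cell, and dendritic cell) 109 genes were analysed here, and none was among the 100 leading genes. A mean FPKM of 1 was reached by 6 of them (5.50%), and 23 (21.1%) were listed at 0 throughout, both near the 7.55% and 18.2% of all genes outside hemoglobin. Their summed FPKM was 29.9, 36.0 and 50.0, or 0.113% ± 0.0189 (SD, n = 3) of the FPKM outside hemoglobin. It was lowest in replicate 1 and highest in replicate 3. Cd52, which is on none of these lists, had a mean of 211 ± 26.3 and so exceeded their sum. The platelet list exceeded this sum 15.4-, 12.7- and 12.8-fold, and without Pf4 by 3.63-, 3.13- and 3.29-fold. These white cell values cover only part of the genes named on the lists. For neutrophil genes 27 of 35 were analysed, and for monocyte and macrophage genes 20 of 23. For T cell genes it was 20 of 23, for B cell genes 14 of 20 and for NK and cytotoxic genes 15 of 22. For eosinophil, basophil and mast cell genes it was 5 of 15, and for dendritic cell genes 8 of 11.

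Neutrophil genes held 0.0591% ± 0.00919 and monocyte and macrophage genes 0.0355% ± 0.00595 of the FPKM outside hemoglobin. The order was the other way by counts, with 3053 for the neutrophil and 5605 for the monocyte and macrophage list over the 3 libraries. The neutrophil list was led by S100a9 and S100a8, the chains of calprotectin. S100a9 had FPKM values of 7.10, 8.99 and 10.6, from 341, 428 and 492 counts. S100a8 had 6.77, 6.91 and 9.39, from 172, 174 and 230 counts. Both were highest in replicate 3. Retnlg, a resistin-like protein of rodent neutrophils, had 0.967, 1.89 and 2.61 and was the only other gene of this list at a mean of at least 1. The receptors Csf3r and Cxcr2 had means of 0.0333 ± 0.0435 and 0.0107 ± 0.0118, and Mmp9, a granule protease, was listed at 0 in all 3 libraries.

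The monocyte and macrophage list was led by Lyz2, lysozyme, with FPKM values of 3.79, 5.31 and 8.47, and by Apoe, apolipoprotein E, with 4.25, 4.41 and 4.55. Lyz2 differed 2.23-fold between libraries while Apoe differed little. Csf1r, the receptor of the monocyte growth factor, had a mean of 0.168 ± 0.0355, and Cd14 and Cd68 were listed at 0 in all 3 libraries. The lymphocyte lists had smaller sums, 0.00700% for T cell and 0.00304% for B cell genes. Cd3g of the T cell receptor complex had 1.01, 0.470 and 1.26, and Cd79b of the B cell receptor complex had 0.269, 0.298 and 0.649. Ccl5, a chemokine of cytotoxic cells and platelets, had 0.434, 0.896 and 1.89 and led the NK and cytotoxic list. Of the class II pathway, Cd74, the invariant chain, had 1.12, 0.996 and 1.35, whereas B2m, the light chain of class I molecules that many cells make, had 245, 227 and 300. At these depths a white cell gene listed at 0 was not detected, which is not the same as absent.

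Markers of cells outside the blood were low, but some lay above the floor. Endothelium and stroma genes summed to 0.181 ± 0.0317 FPKM over 7 genes, from 201 counts in all. Liver plasma protein genes summed to 0.573 ± 0.163 FPKM over 7 genes, from 320 counts. Col3a1, a collagen chain, had 36, 37 and 25 counts, whereas Kdr was listed at 0 and Alb, albumin, was detected in replicate 2 alone.

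A number of leading genes lay in none of the lists. They were picked here after their values were seen and are given as values. Npy, a peptide best known from neurons, had FPKM values of 128, 130 and 185. Alox15, a lipoxygenase known in rabbit reticulocytes for attack on mitochondrial membranes, had 50.9, 61.0 and 75.0, and Pla2g2a, a secreted phospholipase, had 53.8, 52.9 and 96.9. These genes were highest in replicate 3. Marchf2, a membrane ubiquitin ligase, had 173, 191 and 165, and Psenen, a subunit of gamma-secretase, had 173, 186 and 145. Both were lowest in replicate 3.

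**Figure D5:**
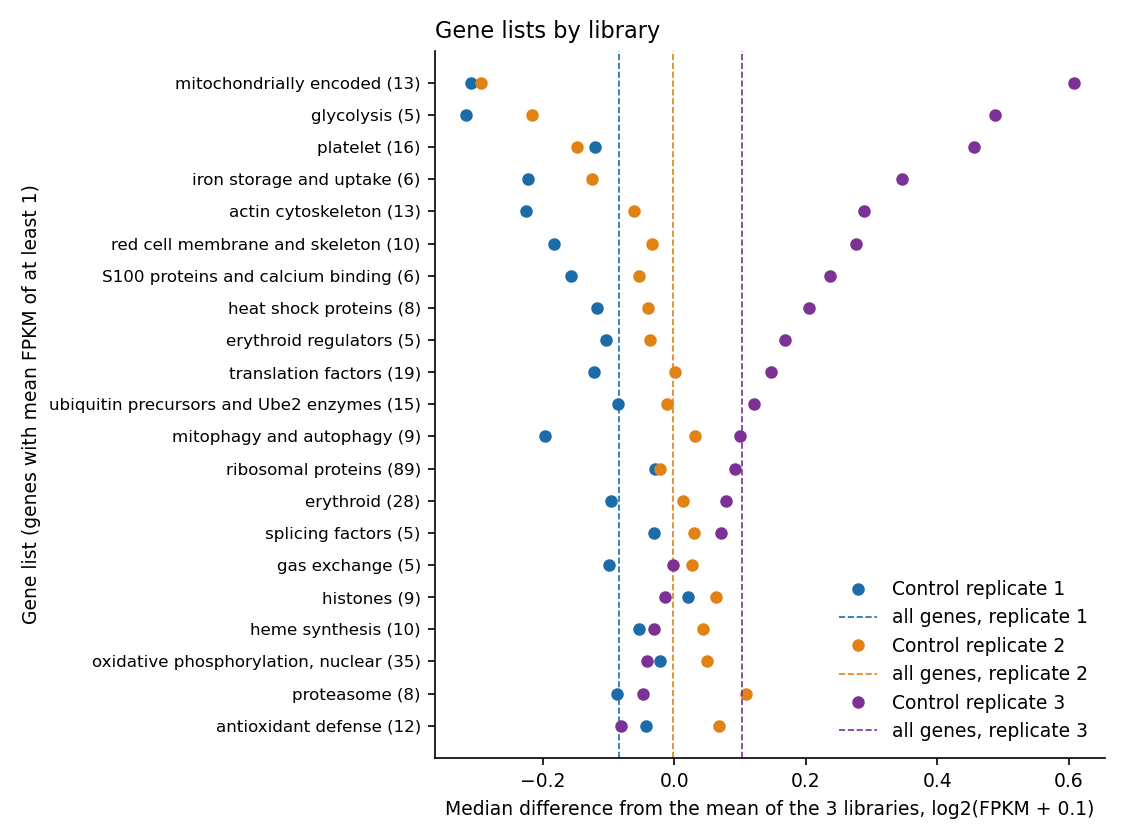
Median difference of a list's genes (mean FPKM of at least 1) from their mean over the 3 Control libraries, on the log2(FPKM + 0.1) scale, with 1 point per library and dashed lines for all such genes outside hemoglobin. In replicate 3 the mitochondrially encoded, glycolysis and platelet lists lie at 0.61, 0.49 and 0.46, to the right of the line for all genes at 0.10.

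The gene groups that set replicate 3 apart could be named. All 13 mitochondrially encoded genes, 15 of 16 platelet genes, 5 of 5 glycolytic genes and 11 of 13 genes of the actin cytoskeleton were highest in it, against 56.5% of all genes. So were 6 of 6 S100 and calcium-binding genes, 9 of 10 of the red cell membrane and skeleton, 7 of 8 reference genes, 5 of 6 of iron storage and uptake and 4 of 5 erythroid regulators. The erythroid list as a whole was close to that background, with 16 of 28 (57.1%), and so were ribosomal proteins, with 50 of 89 (56.2%). The median ratio of replicate 3 to the mean of replicates 1 and 2 was 1.88 for mitochondrially encoded genes and 1.63 for platelet genes, against 1.11 for all genes. Antioxidant defense (0.912), proteasome (0.949), nuclear oxidative phosphorylation (0.951), heme synthesis (0.966), histones (0.985) and gas exchange (0.997) lay under 1. What set this library apart was not tested. Without it the platelet list made 1.45% and the mitochondrially encoded list 3.63% of the FPKM outside hemoglobin.

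The spread between libraries depended on the level. The median SD of log2(FPKM + 0.1) over the 3 libraries was 0.20 for the 977 genes with a mean FPKM of at least 1. Between 2 libraries it was 0.12 for replicates 1 and 2, 0.17 for 2 and 3 and 0.19 for 1 and 3. The median coefficient of variation was 8.32% for the 43 genes from 100 to 1000 FPKM, 32.8% for the 2268 genes from 0.1 to 1 and 130% for the 7274 genes above 0 and under 0.1. Across the 970 genes outside hemoglobin, Pearson's r of the log2 values was 0.982 for replicates 1 and 2, 0.973 for 1 and 3 and 0.974 for 2 and 3, a description over genes that are not independent. Replicates 1 and 2 shared all 30 leading genes, and replicate 3 shared 27 with each. Genes with a symbol and a mean of at least 10 were ranked by spread. Those of the smallest spread were Car2, the ribosomal protein genes Rps15a (25.5 in each library), Rps27a and Rps24, and the histone gene H3f3c.

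Among genes with a symbol and a mean FPKM of at least 10, the widest spread was that of Hbe2, Hbg1, Rps12 and entries named Rpl38. Each of these has other family members or copies among the entries of the table. Entries with no symbol were not ranked by spread. Rps12 had FPKM values of 34.2, 92.2 and 34.4, whereas an S12-like entry on chromosome 17 (ENSRNOG00000062272), looked up after these values were seen, had 89.2, 37.2 and 87.6. The values ran opposite to each other, and their FPKM sum was 123, 129 and 122, a range of 1.06-fold, while their summed counts ranged 1.23-fold. The symbol Rpl38 was carried by 5 entries. The entry on chromosome 10 had 66.0, 39.8 and 39.7, those on chromosomes 2 and 3 had 8.84, 22.8 and 26.0, and 4.13, 13.4 and 16.2, and the sum of all 5 was 80.8, 77.8 and 84.0, a range of 1.08-fold by FPKM and 1.18-fold by counts. The SD of the log2 sum was 0.05 for S12 and 0.06 for L38, against up to 0.82 and 1.06 for a single entry. The sum of Hbe1, Hbe2 and Hbg1 was not level in the same way, with an SD of 0.34 against 0.25 for Hbe1 alone. How alike the sequences of these entries are was not tested, and where reads can be split between copies the single values are uncertain.

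The order of genes also depended on the scale. By counts, which favor long transcripts, 20 of the 30 leading genes were the same. Ppp1cb, a catalytic subunit of protein phosphatase 1 with 10977 bases, was the 303rd gene outside hemoglobin by FPKM (7.70 ± 0.293) and the 76th by counts, and Myo5c, a myosin motor with 6640 bases, was the 244th (11.2 ± 0.372) and the 86th. Short entries moved the other way. The mitochondrial entry AY172581.19, of 69 bases, was the 62nd by FPKM and the 530th by counts, and the ubiquitin-like entries ENSRNOG00000069384 and ENSRNOG00000065739, of 234 bases each, fell from the 55th to the 209th and from the 84th to the 316th.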

How the data were processed

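Poly(A) RNA of rat whole blood was sequenced as paired ends after a library protocol that marks the strand and adds unique molecular identifiers. The submitters' processing notes list the aligner HISAT2 2.0.4 and the quantifier StringTie 1.3.4d, besides UMI-tools and cutadapt 1.9, and give no settings. They name a mouse build while the table holds rat genes, so no build was assigned to its coordinates. In the deposited table FPKM was already scaled for length and depth by the authors. The estimated count of each gene, also deposited, is a whole number without scaling and was used as given.

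The Control libraries were described without a test between groups. Genes were ranked by mean FPKM with Python 3.11.15, with hemoglobin genes set apart by the start of the name. Spread was the SD of log2(FPKM + 0.1), and edgeR 4.0.16 gave a biological coefficient of variation of 0.193 outside hemoglobin. Its estimate was tested on simulated counts, which did not carry the units of 4 counts seen in these libraries. With counts divided by 4, the coefficient over the 977 genes with a mean FPKM of at least 1 was 0.201 in place of 0.235. The 35 gene lists named 533 genes, of which 461 were analysed here, and some lists were drawn by the start of the symbol. Lists overlap. The members and lists were chosen with earlier results of these data known. The genes named were the hemoglobin genes, the 30 leading genes outside hemoglobin, and the 5 leading genes of each cell type list and 4 of each function list. Named too were the 5 genes of highest and of lowest spread among those with a symbol and a mean FPKM of at least 10. The 5 whose rank differed most between scales and defining markers were added. ENSRNOG00000062272, 3 further Rpl38 entries, Npy, Alox15, Pla2g2a, Marchf2 and Psenen were chosen after their values were seen. Alternatives were counts, other thresholds and pseudocounts, TMM and DESeq2 1.42.0 scaling, leaving out a library or a list's leader, and, chosen after seeing the data, counting the unnamed genes within Hbb-b1 as hemoglobin and leaving out ribosomal RNA. Promoters came from RefSeq (GRCr8). Some genes that the naming rule covers are not reported here.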

Additional observations from a re-analysis of the deposited data

How the results depend on the processing

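No paired analysis was possible because 1 group was described and no test between groups was made. By counts, hemoglobin made 95.5% in place of 89.9%, 25 genes in place of 13 held 50% of the rest, and the erythroid, platelet and neutrophil lists made 12.7%, 0.976% and 0.0343%, the last under the monocyte and macrophage list at 0.0634%. With the unnamed genes within Hbb-b1 counted as hemoglobin, an alternative chosen after seeing the data, hemoglobin made 92.8%, 29 genes held 50% of the rest, and those lists made 10.6%, 2.14% and 0.0833%; all 35 list shares were 1.39 to 1.42 times as large. Without their leading gene these lists made 5.09%, 0.374% and 0.0329%. A mean FPKM of at least 0.1 was reached by 3245 genes and any value above 0 by 10519, against 977 at 1. Leaving out 1 library gave a hemoglobin share of 89.4% to 90.6%, 957 to 995 genes at a mean FPKM of at least 1, 11 to 14 genes holding 50% of the rest and a median SD of log2 values of 0.119 to 0.185, lowest without replicate 3. The 35 list shares were then 0.782 to 1.24 times as large. Their SD is no yardstick for this change, because leaving out 1 of 3 values always moves a mean by less than 1 SD. By counts 28 of the 35 list shares were higher and 7 lower, and 30 moved by more than 1 SD. With 3 libraries of unstated origin the SD is itself imprecise, and white cell lists rest on few counts (3053 for neutrophil genes over all libraries).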
